A study of Mus musculus with 2 samples.

Results

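The 10 genes described here control whether a cell passes from G1 into S phase. They are 5 inhibitors of cyclin-dependent kinases (Cdkn1a, Cdkn1b, Cdkn2a, Cdkn2b and Cdkn2c), the transcription factor p53 (Trp53), its targets Mdm2 and Ccng1, and the D-type cyclins Ccnd1 and Ccnd2. They were chosen by symbol out of 21849 genes listed in both count matrices, a rule that uses no measured value although the list was drawn up with earlier results of these data known, and all 10 were found. Single-cell RNA sequencing (10x Chromium 3′ v3.1) had been run on 1 library of primary costal cartilage-derived stem cells (CDSCs) and 1 library of CDSCs grown in culture to passages 2 to 3. The primary cells came from rib cartilage of newborn CD45.1 or ZsGreen C57BL/6J mice, digested with collagenase and sorted as CD45-CD51+. The cultured cells were sorted in the same way and then grown in minimum essential medium with fetal bovine serum. ZsGreen is a fluorescent reporter, and no treatment beyond culture and no gene deletion is named for either group. How many mice entered each library, and which of the 2 strains, is not given in the sources used here. The labels call the tissue bone marrow, whereas the methods describe rib cartilage.

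With 1 library per group, no difference between primary and cultured CDSCs has a replicate check. Effects of culture and of the single library cannot be told apart, no p-value is given, and all intervals cover counting error only. A barcode was kept as a cell with at least 500 genes, at least 1000 UMIs (molecular barcodes, 1 for each RNA molecule captured) and at most 10% mitochondrial UMIs. This kept 11746 of 11896 primary barcodes with a median of 10027 UMIs and 5338 of 10798 cultured barcodes with a median of 56865 UMIs. Levels are CPM, the UMIs of a gene summed over the kept cells of a library and scaled to a total of 1000000, from 137148874 primary and 330129909 cultured UMIs. Each captured molecule is counted at its 3′ end, so CPM is not divided by transcript length. A set of 32 barcodes occurs in both libraries, 15 of them kept in each, and leaving these out left 7 of the 10 genes past the 2-fold threshold, as before. The 13 chondrocyte marker genes summed to 89400 CPM in primary and 1036 in cultured CDSCs, so the defining markers of cartilage were strong only in the primary library. Ptprc, which encodes CD45, stood at 0.620 and 0.345 CPM, and Itgav, which encodes CD51, at 92.5 and 109.

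In G1, D-type cyclins bind CDK4 or CDK6 and phosphorylate the retinoblastoma protein, which frees E2F factors to drive S phase genes. The INK4 proteins (from Cdkn2a, Cdkn2b and Cdkn2c) bind CDK4 and CDK6 and block that step, and the CIP/KIP proteins p21 (Cdkn1a) and p27 (Cdkn1b) act on cyclin-CDK complexes more broadly. Stress and DNA damage stabilise p53, which switches on Cdkn1a, Mdm2 and Ccng1, and MDM2 in turn marks p53 for destruction. Cdkn2a also encodes p19Arf, which restrains MDM2 and so links the INK4 locus to p53, and the locus is known for becoming active in cultured rodent cells.

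All 10 genes were higher by CPM in cultured than in primary CDSCs. The share of all genes that were higher by any margin was not computed. At least a 2-fold difference was reached by 7 (Cdkn1b, Cdkn2a, Cdkn2b, Cdkn2c, Ccng1, Ccnd1 and Ccnd2), where 27.2% of the 9115 genes that reached 10 CPM in one or both libraries were 2-fold higher in cultured CDSCs. None was 2-fold lower, where 12.5% of the 9115 genes were. A 4-fold difference was reached by 5 of the 10, where 10.6% of the 9115 genes were 4-fold higher. The median log2 ratio of cultured over primary was 2.29 for the 10 genes and 0.37 for the 9115 genes, so part of any ratio is shared with the bulk of genes on this scale. With trimmed mean (TMM) scaling the median over all genes was 0.17 and again 7 of the 10 genes were at least 2-fold higher.

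**Figure D1:**
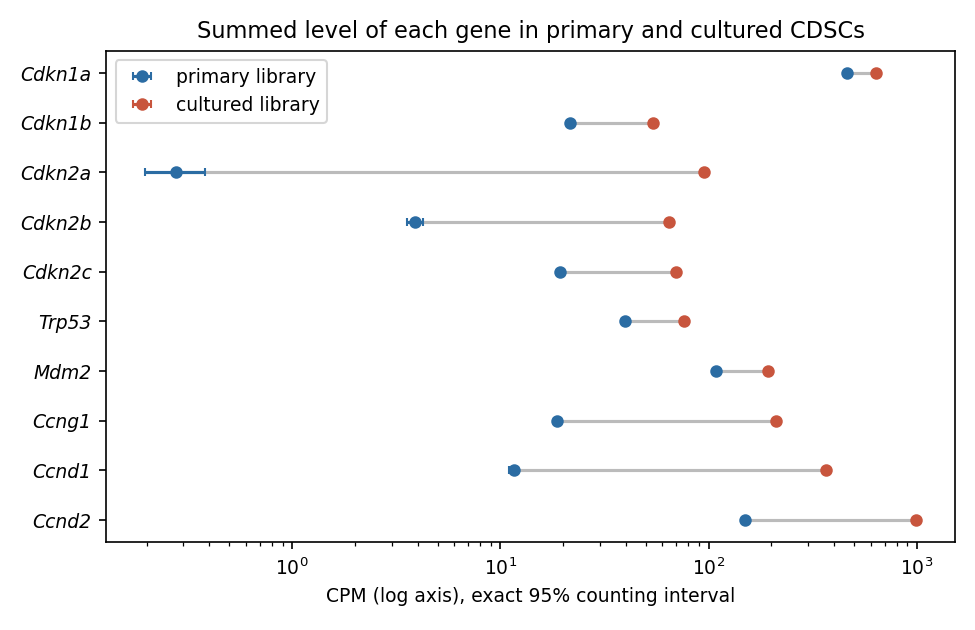
Level of the 10 genes in CPM (log axis) in the primary (blue) and cultured (red) library, with exact 95% counting intervals that are mostly narrower than the points. Every red point lies to the right of its blue point, and the grey line joining them is longest for Cdkn2a, from 0.277 to 95.5.

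Of the INK4 inhibitors, Cdkn2a was almost unseen in primary CDSCs. Cdkn2a (chr4:89274471-89294653, minus strand, GRCm38) gave 38 UMIs in all of the primary library, or 0.277 CPM (95% interval 0.196 to 0.380), and 31533 UMIs, or 95.5 CPM (94.5 to 96.6), in cultured CDSCs. The level was thus close to nothing in one library and plain in the other, a 345-fold ratio with a counting interval of 251 to 487. Among the 9115 genes this was one of the largest log2 ratios, at 8.43. Only 37 of 11746 primary cells held a Cdkn2a UMI, and no cell held more than 2.

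Cdkn2a has 2 starts, one for p19Arf and, downstream of it, one for p16Ink4a. The transcripts share their last exons, and a 3′ count cannot tell which of them was measured. The 250 bases upstream of each start are shown since they are the regions that part these products, taken from RefSeq (GRCm38.p6, minus strand, read 5′ to 3′). Neither holds the p53 decamer motif described further on.
Cdkn2a, p19Arf start, chr4:89294620-89294869: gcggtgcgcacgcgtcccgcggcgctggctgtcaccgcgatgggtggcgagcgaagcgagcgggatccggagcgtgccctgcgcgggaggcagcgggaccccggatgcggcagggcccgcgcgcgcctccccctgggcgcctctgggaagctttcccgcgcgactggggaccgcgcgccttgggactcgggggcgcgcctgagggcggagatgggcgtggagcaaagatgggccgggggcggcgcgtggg
Cdkn2a, p16Ink4a start, chr4:89282193-89282442: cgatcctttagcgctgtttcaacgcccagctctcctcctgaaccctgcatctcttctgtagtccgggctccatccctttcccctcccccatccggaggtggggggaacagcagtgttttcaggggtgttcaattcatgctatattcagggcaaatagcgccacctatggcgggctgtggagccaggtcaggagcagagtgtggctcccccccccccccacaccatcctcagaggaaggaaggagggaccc

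Cdkn2b lies next to Cdkn2a (chr4:89306299-89311039, minus strand) and encodes p15Ink4b, an inhibitor known as a target of TGF-beta signalling. It stood at 3.89 CPM (3.57 to 4.24) in primary and 64.2 (63.3 to 65.0) in cultured CDSCs, a 16.5-fold ratio (15.1 to 18.0). Cdkn2c, which encodes p18Ink4c and lies elsewhere on the chromosome (chr4:109660876-109667189), went from 19.4 (18.6 to 20.1) to 70.1 (69.2 to 71.0), a 3.62-fold ratio. All 3 INK4 genes on the list therefore lay in the same direction, with ratios that do not overlap in their counting intervals. The remaining INK4 gene, Cdkn2d (p19Ink4d), lay the other way, with 28.8 CPM in primary and 15.3 in cultured CDSCs. The log2 ratio of -0.91 missed the 2-fold threshold, but it was past it with TMM scaling (-1.11), with each cell weighing the same (-1.12), in cells of low cycle state (-1.21) and in cells with 5000 to 20000 UMIs (-1.86).

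In the CIP/KIP family the paralogs went different ways. Cdkn1a (chr17:29090976-29100727, plus strand) was abundant in both libraries, with 459.5 CPM (456 to 463) in primary and 638 (635 to 641) in cultured CDSCs, a ratio of 1.39. Cdkn1b (chr6:134920401-134925513) stood at 21.7 (20.9 to 22.4) and 54.3 (53.5 to 55.1), a ratio of 2.51. The third paralog, Cdkn1c, an imprinted gene that encodes p57 and is known from chondrocytes leaving the cell cycle, stood at 616 in primary and 33.0 in cultured CDSCs, a log2 ratio of -4.22. Cdkn3, which encodes a phosphatase acting on CDKs and is itself expressed in dividing cells, stood at 4.31 and 21.8.

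The Cdkn1a and Cdkn1b ratios depended on which cells were compared. In cells of matched depth, with 5000 to 20000 UMIs (9794 primary and 387 cultured cells), Cdkn1a stood at 465 CPM in primary and 429 in cultured CDSCs, so the direction turned to a log2 ratio of -0.12. In the same cells Cdkn1b fell short of the threshold, at 22.0 and 37.0 CPM (log2 ratio 0.75). With cultured cells split into 4 depth groups of near-equal size, Cdkn1a read 452, 518, 636 and 689 CPM from the shallowest to the deepest. In primary CDSCs the 4 groups read 490, 478, 439 and 455. Cdkn1a thus rose over the 4 depth groups of the cultured library, whose shallowest group lay under 3 of the 4 primary groups. The rise did not hold inside that shallowest group. Its 795 cells under 5000 UMIs stood at 605 CPM (562 to 650), above all 4 primary groups and above the 429 of cells with 5000 to 20000 UMIs. The cultured groups also differed in their median mitochondrial share, at 0.557% of UMIs in the shallowest and 2.49, 2.43 and 2.01% in the others, next to 2.02, 1.89, 1.79 and 1.74% in the primary groups. With cells under 1% mitochondrial UMIs left out as well, the cells of 5000 to 20000 UMIs (8920 primary and 298 cultured) gave a log2 ratio of -0.14 for Cdkn1a. The part of depth and of mitochondrial share in the Cdkn1a pattern was not tested. Cdkn2a showed no such pattern in cultured cells, at 85.9, 97.7, 100.4 and 92.5 CPM.

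In the p53 group, Trp53 itself (chr11:69580359-69591873, plus strand) stood at 39.6 CPM (38.5 to 40.6) in primary and 76.1 (75.2 to 77.0) in cultured CDSCs, a ratio of 1.92. Mdm2 (chr10:117688875-117710758, minus strand), which encodes the ubiquitin ligase of p53, stood at 108 (106 to 110) and 193 (191 to 194), a ratio of 1.78. Both were higher but stayed under 2-fold in all 12 alternative settings. Ccng1 (chr11:40748552-40755311, minus strand), which encodes the atypical cyclin G1 and is a classical p53 target, stood apart from them with 18.8 (18.0 to 19.5) and 209.6 (208 to 211), a ratio of 11.2. The 3 classical p53 targets among the 10 genes thus had ratios of 1.39 (Cdkn1a), 1.78 (Mdm2) and 11.2 (Ccng1).

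The p53 response element consists of a pair of decamer motifs, and a single decamer was searched in the 250 bases upstream of each RefSeq start. Its consensus reads the same on both strands, so one search covers both. RefSeq windows were matched for 8 of the 10 genes, all but Ccnd1 and Ccnd2. Cdkn1a, Trp53, Mdm2 and Ccng1 held the decamer and Cdkn1b, Cdkn2a, Cdkn2b and Cdkn2c did not, so 4 of 8 genes had it in at least 1 window, against 8.20% of the 27025 genes in the whole table. These 4 are p53 itself and genes listed because they are known p53 targets, so the comparison is no test of enrichment. A gene with several starts has several windows and so more chances of a match, and over single windows the share was 7.13% of 32851. The 4 windows with a match are printed with the decamer in capitals, to show where it lies in the p53 gene and in its targets. The Cdkn1a window belongs to the more upstream of its 2 annotated starts and holds 2 decamers, which begin 73 and 51 bases before the start. In Trp53, Mdm2 and Ccng1 the decamer begins 75, 186 and 185 bases before the start.
Cdkn1a, chr17:29090729-29090978, plus strand: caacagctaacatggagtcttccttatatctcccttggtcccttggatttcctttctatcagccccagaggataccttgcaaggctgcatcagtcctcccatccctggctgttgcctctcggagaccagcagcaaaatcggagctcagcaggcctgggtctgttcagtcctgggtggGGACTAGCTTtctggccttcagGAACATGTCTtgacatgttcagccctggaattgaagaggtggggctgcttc
Trp53, chr11:69580109-69580358, plus strand: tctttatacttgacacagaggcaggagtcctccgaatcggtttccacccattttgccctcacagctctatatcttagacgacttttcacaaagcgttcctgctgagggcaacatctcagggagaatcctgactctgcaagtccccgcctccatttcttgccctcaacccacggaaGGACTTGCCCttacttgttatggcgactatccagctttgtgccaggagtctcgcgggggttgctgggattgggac
Mdm2, chr10:117710759-117711008, minus strand: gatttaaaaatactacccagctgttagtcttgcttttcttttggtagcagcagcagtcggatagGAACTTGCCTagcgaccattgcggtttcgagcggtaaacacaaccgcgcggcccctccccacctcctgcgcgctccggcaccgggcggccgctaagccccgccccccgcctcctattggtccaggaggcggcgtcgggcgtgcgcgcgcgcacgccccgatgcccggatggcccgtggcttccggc
Ccng1, chr11:40755287-40755536, minus strand: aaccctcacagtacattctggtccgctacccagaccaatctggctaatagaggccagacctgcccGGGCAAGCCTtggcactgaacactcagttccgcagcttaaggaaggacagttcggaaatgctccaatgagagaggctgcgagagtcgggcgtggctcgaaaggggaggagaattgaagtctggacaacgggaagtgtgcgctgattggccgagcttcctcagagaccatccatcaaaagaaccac
A match of letters is no evidence of binding, and known elements outside these windows, such as that in the first intron of Mdm2, were not searched.

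Of 26 further p53 targets on a list, 24 reached 10 CPM in one or both libraries. At least 2-fold higher in cultured CDSCs were 12, at least 2-fold lower 2, and between these 10. Over all genes 27.2% were 2-fold higher and 12.5% 2-fold lower. The median log2 ratio of the 24 targets was 1.26 against 0.37 over all genes. The pro-apoptotic Bax stood at 54.3 in primary and 537 in cultured CDSCs, and Pmaip1, which encodes NOXA, at 0.882 and 10.2. Phlda3, a repressor of AKT signalling, stood at 14.7 and 270, and the death receptor gene Eda2r at 0.350 and 26.5. The kinase gene Plk2 stood at 10.3 and 235, and the adenylate kinase gene Ak1 at 6.55 and 84.9. The 2 that were 2-fold lower, named after their values were seen, were the antiproliferative gene Btg2, at 1365 and 282, and the DNA repair gene Ddb2, at 15.1 and 6.27. The list therefore did not move as 1 block, with members near Cdkn1a in ratio beside others near Ccng1. The regulators of p53 and the DNA damage kinases had a median log2 ratio of 0.01 (-0.19 with TMM scaling) over 6 genes, of which the kinase gene Atm was the only one 2-fold apart, at 8.60 and 17.8.

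**Figure D2:**
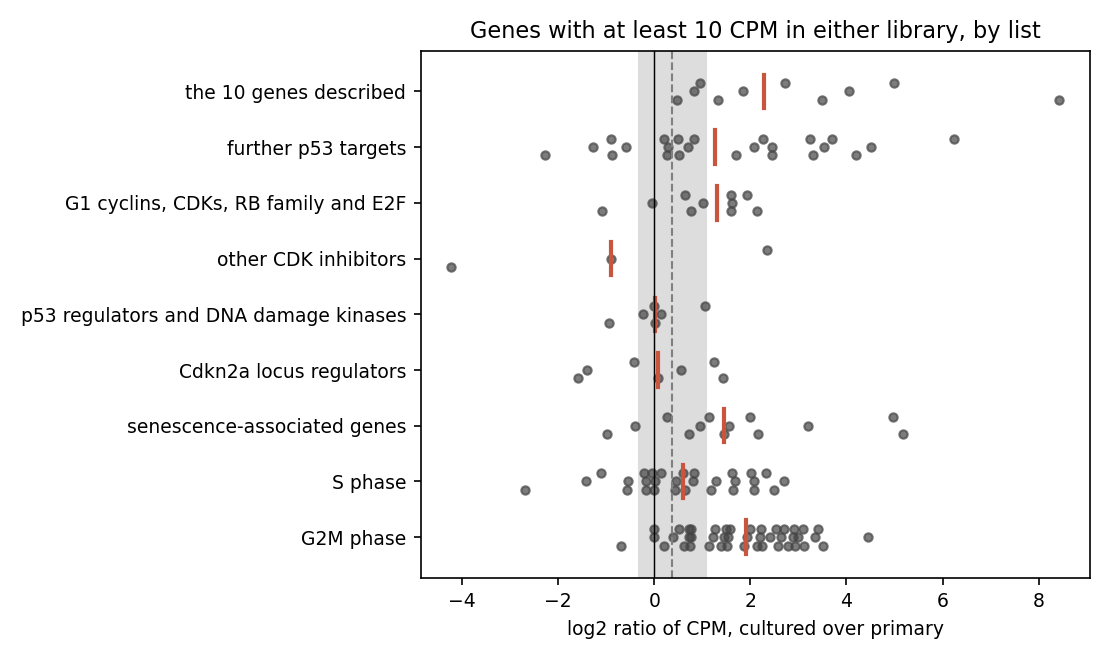
Log2 ratio of CPM, cultured over primary, for genes that reached 10 CPM in one or both libraries; each point is a gene, red bars are list medians, the dashed line is the median of all 9115 genes and the grey band their middle quartiles. The 10 genes have a median of 2.29 and the 24 p53 targets one of 1.26, while p53 regulators lie around 0.

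Among the D-type cyclins, Ccnd1 gave the largest ratio of the 10 genes after Cdkn2a. Ccnd1 (chr7:144929931-144939925, minus strand), a gene induced by growth factors, stood at 11.6 CPM (11.0 to 12.2) in primary and 368 (366 to 370) in cultured CDSCs, a 31.8-fold ratio. Ccnd2 (chr6:127125162-127152193, minus strand) stood at 150.3 (148 to 152) and 989 (986 to 993), a 6.58-fold ratio. The third D-type cyclin, Ccnd3, lay the other way with 169 and 79.0, a log2 ratio of -1.09. So 1 D-type cyclin was lower where the others were higher.

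Their partners and targets were mostly higher in cultured CDSCs. Of 17 listed G1 cyclins, CDKs, retinoblastoma family and E2F genes, 10 had at least 10 CPM, and 6 of these were at least 2-fold higher and 1 (Ccnd3) lower. Over all genes 27.2% were 2-fold higher and 12.5% 2-fold lower. Cdk6, the kinase partner of D-type cyclins, stood at 18.4 and 80.7, Ccne1 at 4.66 and 14.1, and E2f1 at 4.73 and 17.9. Rb1, the brake they act on, stood at 11.2 and 34.3, and E2f3 at 16.0 and 48.6. The higher genes thus included a brake, Rb1, beside genes that drive S phase, whereas its relative Rbl2, named after its values were seen, stood level at 16.6 and 16.2.

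Genes of the S and G2M phases were counted beside these. Over all 9115 genes 27.2% were at least 2-fold higher in cultured CDSCs and 12.5% at least 2-fold lower, with a median of 0.37. Of 29 S phase genes 11 were at least 2-fold higher in cultured CDSCs and 3 lower, and of 44 G2M genes 32 were higher and 0 lower, with medians of 0.59 and 1.90. The 12 immediate early genes, which are induced within minutes by stress such as tissue digestion, lay the other way, with 0 higher and 10 lower and a median of -3.21. Fos stood at 5378 CPM in primary and 308 in cultured CDSCs, and Atf3 at 1189 and 23.0. Their part in the Cdkn1a and Mdm2 levels of primary cells was not tested.

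Regulators of the Cdkn2a locus were mixed, with 2 of 7 at least 2-fold higher (27.2% of all genes were) and 2 lower (12.5% were). Their median was 0.09 (-0.11 with TMM scaling). The Polycomb repressor gene Bmi1 stood at 8.72 in primary and 20.7 in cultured CDSCs, and the T-box repressor gene Tbx3 at 11.7 and 31.5. The demethylase gene Kdm6b stood at 82.3 and 31.4, and Id1, whose protein inhibits activators of p16Ink4a, at 1064 and 353. The Polycomb methyltransferase gene Ezh2, named after its values were seen, stood at 39.6 and 42.0, so repressors of the locus did not all lie one way. Of 13 senescence-associated genes 8 were higher by 2-fold or more (27.2% of all genes were), with a median log2 ratio of 1.46. None was lower by that much (12.5% of all genes were). Igfbp7 (772 and 391) and Cxcl1 (27.7 and 21.1) were lower by less than that, and were named after their values were seen. Il6 stood at 0.678 and 24.5, Ccl2 at 0.839 and 26.4, and Gdf15 at 1.39 and 12.8. Lmnb1, which encodes lamin B1 and is known to be lost in senescent cells, is counted among those 8, at 17.0 and 46.8. It was named after its values were seen. Its own log2 ratio is the median of 1.46 given above. The list thus mixes genes that senescence moves in different directions, so its count and median are no measure of senescence.

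To compare cells at one depth, UMIs were drawn at random until each cell held 5000. Shallower cells (787 primary, 795 cultured) could not be used, and 10959 primary and 4543 cultured cells remained. All 10 genes were detected in a larger share of cultured cells. For how many of all genes this also held was not computed, so the count is not set against a background. Cdkn2a had a UMI in 0.100% of primary cells (exact binomial interval 0.0501 to 0.180) and 32.5% of cultured cells (31.1 to 33.9). Cdkn2b had one in 1.78% and 25.8%, and both genes together were detected in 0.00912% and 9.88% of cells. Ccnd1 had a UMI in 3.87% and 72.7% of cells, and Ccng1 in 8.81% and 60.0%. These 4 genes were thus seen in fewer than 1 in 10 primary cells, and Ccnd1 and Ccng1 in most cultured cells.

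Cdkn1a was detected in 68.7% of cells (67.8 to 69.5) in the primary library and in 84.7% (83.6 to 85.7) in the cultured one. Ccnd2 had one in 45.3% and 94.8%, and Mdm2 in 36.4% and 55.6%. Trp53, Cdkn2c and Cdkn1b had one in 17.9%, 8.72% and 10.4% of primary and in 30.9%, 26.2% and 23.5% of cultured cells. Cdkn1a, an inhibitor, and Ccnd2, a cyclin, were detected together in 30.7% of primary and 81.0% of cultured cells. Without thinning, shares ranged from 0.315% (Cdkn2a) to 78.8% (Cdkn1a) in primary and from 73.6% (Cdkn1b) to 96.6% (Ccnd2) in cultured cells, which also held more UMIs per cell.

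**Figure D3:**
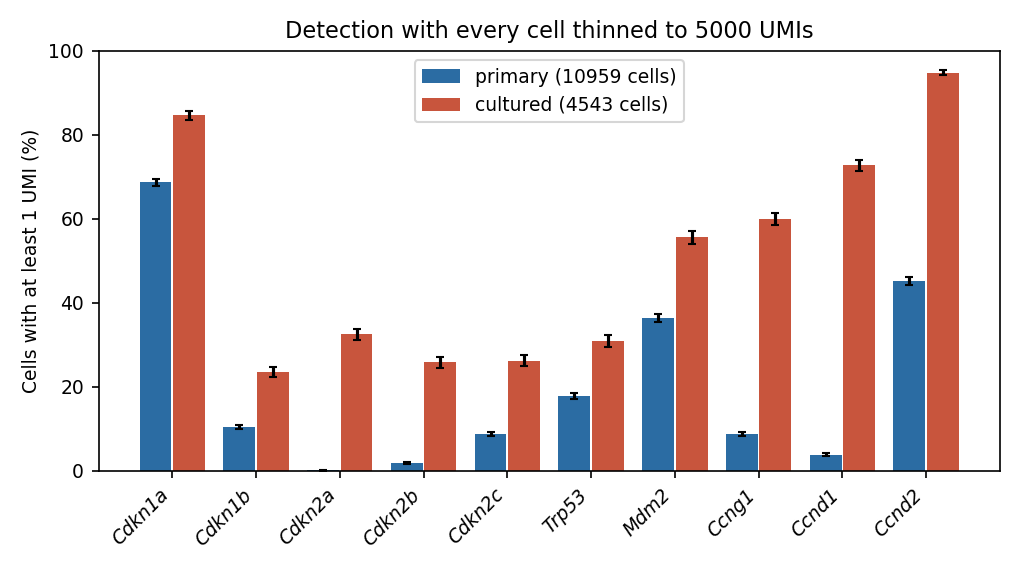
Percentage of cells in which each gene was detected, after every cell was thinned to 5000 UMIs, for 10959 primary (blue) and 4543 cultured (red) cells; error bars are exact 95% binomial intervals. Each red bar is taller than its blue bar, from 0.100% against 32.5% for Cdkn2a to 68.7% against 84.7% for Cdkn1a.

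RNA released from broken cells can put a UMI into a cell that does not express the gene. No cell type that should lack all these genes was found to set that level. A cultured cluster of 15 cells that met 7 haematopoietic markers, among them Lyz2 and Pf4, gave 76.9 CPM of Cdkn2a (53.6 to 107), next to 95.5 in all cultured cells. It gave 17.6 of Cdkn2b (7.59 to 34.6) next to 64.2, 332 of Ccnd2 (281 to 389) next to 989, and 536 of Ccnd1 (471 to 608) next to 368. The counts of these genes are therefore not in 1 ratio in this cluster and in the rest. In 11 of its cells that reached 5000 UMIs, Cdkn2a was seen in 9.09% (0.230 to 41.3), next to 32.5% of all cultured cells. The median depths were 22917 UMIs in the cluster and 56865 in all cells. The part of released RNA in the cultured shares was not tested.

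Cells of each library were clustered without the 10 genes, and clusters of at least 50 cells (10 primary and 7 cultured) were compared by their summed level. Cdkn2a, Cdkn2b, Ccng1, Ccnd1 and Ccnd2 did not overlap, since the highest primary cluster lay under the lowest cultured one. For Cdkn2a these were 2.91 and 40.5 CPM, for Cdkn2b 7.33 and 36.8, and for Ccng1 21.7 and 159. For Ccnd1 they were 54.1 and 251, and for Ccnd2 359.7 and 563. The difference between the libraries thus held in every such cluster for these 5 genes, all of which are among the 7 that were at least 2-fold higher, where 25.0% of the 9115 genes were apart in this way and direction. With finer clusters (resolution 1) these 5 genes again did not overlap, with Ccnd1 at 53.9 and 93.8 and Ccnd2 at 358.7 and 569. The share of all genes apart in this way was not computed for the finer clusters. For the other 5 the clusters overlapped, and Cdkn1a ranged from 61.0 to 717 in primary and from 525 to 735 in cultured clusters. At resolution 1 the cultured range of Cdkn1a was wider, from 171 to 792, with the lowest level in a cluster of 58 cells whose median mitochondrial share was 7.16%.

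Among primary clusters, 9 of 11 took the name chondrocyte because at least 3 chondrocyte markers reached 1000 CPM. None of these 9 met 3 markers of any list, so the name does not set them apart from the rest of the library. One cluster with 264 cells met mesenchymal fibroblast markers and one with 25 cells met endothelial markers. A cluster of 187 cells led by Pbk and Cenpf, genes of mitosis, was the one highest in Mki67 (330 CPM). In it Cdkn2c stood at 133 CPM, against 11.2 to 21.7 in the other primary clusters of at least 50 cells. The same 187 cells, 1.59% of the primary cells, held 10 of the 37 cells with a Cdkn2a UMI and gave 2.91 CPM (1.40 to 5.36), while no other primary cluster of that size gave more than 0.317. Ccnd2 and Mdm2 were lowest there, both at 67.9. The rare primary Cdkn2a molecules thus lay in dividing cells more than elsewhere, though on 10 UMIs.

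In the fibroblast cluster, which also expressed Col1a1 and Postn, Ccnd1 stood at 54.1 and Ccnd2 at 359.7 CPM, the highest of the larger primary clusters for both. The endothelial cluster, with only 25 cells, gave 147 (106 to 199) for Ccnd1. The fibroblast cluster held 0 Cdkn2a UMIs, which allows up to 1.58 CPM (exact 95% upper bound). Leaving out both clusters left 7 of the 10 genes at least 2-fold higher.

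Cdkn1a ranged 11.7-fold among the primary clusters. It was highest, at 717 CPM, in a cluster of 1462 cells in which Dusp2 and Ptgs2 were among the leading genes, where Mdm2 (163) and Cdkn2b (7.33) were also highest. It was lowest, at 61.0, in a cluster of 135 cells led by Zbtb16 and Pknox2, where the summed immediate early genes also stood lowest, at 4510 against 14266 to 23755 in the other clusters. The same 135 cells had a median mitochondrial share of 3.35%, against 1.53 to 1.99% in the others, and a median of 6557 UMIs, and the part of these in the level was not tested. Over the 10 primary clusters the genes whose levels followed Cdkn1a most closely were Spry2 (Pearson r = 0.99), Has1 and Fosl2 (both r = 0.99), and for Ccnd1 they were Cacna1c (r = 0.95), Aff3 (r = 0.93) and Rapgef1 (r = 0.92). These are descriptions over 10 clusters that share 1 library and were picked as the highest among all genes.

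In cultured CDSCs no cluster was given a cell type name, and the 15 cells with 7 haematopoietic markers were left without one since none of those markers was among the 10 leading genes. Cdkn2a was highest, at 118 CPM, in a cluster of 1171 cells led by Klk8 and Slpi and lowest, at 40.5, in one of 187 cells, a 2.91-fold range. At resolution 1 the range was 4.98-fold, and the lowest level, 25.5, lay in the 58 cells of high mitochondrial share. Cdkn2c was also highest and lowest in these clusters, at 76.9 and 25.1. Over the 7 cultured clusters, Klk8 (r = 0.98), Ccdc86 and Lgals3 (both r = 0.95) followed Cdkn2a most closely. They too were picked as the highest among all genes with at least 20 CPM, over only 7 clusters of 1 library, so they are descriptions. Cdkn1a, at 735, was likewise highest in the Klk8 cluster, while Cdkn1b (34.1) and Mdm2 (155) were lowest there. Cdkn1b thus lay opposite to the other inhibitors named here. At resolution 1 Cdkn1b and Mdm2 were lowest elsewhere, at 13.2 and 85.6 in a cluster of 286 cells with a median of 20078 UMIs and a median mitochondrial share of 0.185%. With all cells under 1% mitochondrial UMIs left out (10685 primary and 3955 cultured remained), 7 of the 10 genes were again at least 2-fold higher.

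The cultured cluster highest in Mki67 (359 CPM) held 762 cells led by Aspm and Pbk. Cdkn2a stood at 99.8 there, within the range of the other clusters, and Cdkn2c at 74.3. Ccnd2 and Cdkn2b were lowest in it, at 563 and 36.8, so Ccnd2 was lowest in the dividing cluster of both libraries. Cdkn2c, by contrast, was set apart in dividing cells of the primary library and not in those of the cultured library. A cluster of 713 shallow barcodes, with a median of 1194 UMIs, gave the highest Ccnd2 (1560), Ccnd1 (564), Ccng1 (319) and Trp53 (128) levels. With all cells under 5000 UMIs left out, 7 of the 10 genes were again at least 2-fold higher.

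**Figure D4:**
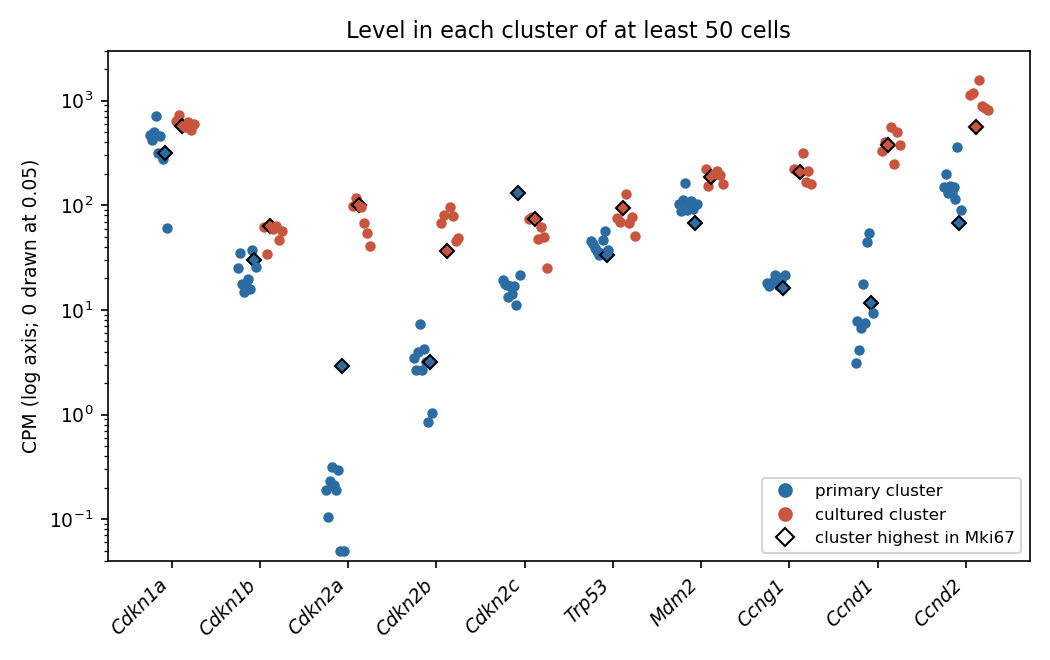
Level of each gene, in CPM (log axis), in the 10 primary (blue) and 7 cultured (red) clusters of at least 50 cells; diamonds mark the cluster highest in Mki67 in each library, and 0 is drawn at 0.05. Blue and red do not overlap for Cdkn2a, Cdkn2b, Ccng1, Ccnd1 and Ccnd2, and the blue diamond stands above the other blue points for Cdkn2a and Cdkn2c.

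Cells were also split by their UMIs of S and G2M genes at 5000 UMIs, into ranges of a score and not cell types. Between G2M-rich cells (at least 5 G2M UMIs) and low cells (at most 2 S and G2M UMIs in all), the log2 ratio in cultured CDSCs was -0.48 for Ccnd2, 0.32 for Cdkn1b, 0.32 for Trp53 and 0.10 for Cdkn2a. Cdkn2a stood at 96.2 CPM in 2421 G2M-rich and 90.0 in 254 low cells, so it was present in both ranges at close to the same level. Cdkn1a was likewise near level, with 626 and 620. In primary CDSCs the log2 ratio was 0.53 for Cdkn2c (26.3 and 18.3 CPM) and 0.01 for Cdkn1a. G2M-rich cells made up 27.9% of primary and 53.3% of cultured cells with at least 5000 UMIs, with Mki67 at 30.2 and 127 CPM. The clusters highest in Mki67 stood at 330 and 359, so this range is not dividing cells alone. When G2M-rich meant at least 10 G2M UMIs, it held 2.64% and 19.3% of cells, with Mki67 at 251 and 318. The primary ratios were then 2.504 for Cdkn2c and -0.30 for Cdkn1a, and that of Ccnd2 in cultured CDSCs was -0.997. Low cells alone kept all 10 genes higher in cultured CDSCs, with no share over all genes computed for these cells.

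Whether the genes were high in the same cells was described by the Cdkn1a count of a cell at 5000 UMIs. In cultured cells with 0, 1 to 2 and at least 3 Cdkn1a UMIs (696, 1636 and 2211 cells), Mdm2 stood at 139.96, 168 and 219.8 CPM. Ccng1 stood at 175, 193 and 227 in them, and Cdkn2a at 74.8, 85.0 and 107. Genes outside the p53 group moved in the same order, with Cdkn2b at 50.6, 58.7 and 70.5 and Ccnd2 at 820.1, 929 and 1057. The order was thus not particular to p53 targets, whereas Trp53 stayed at 77.0, 74.4 and 76.8. The 26 further p53 targets summed to 7.94, 9.22 and 11.1 UMIs per 5000, and the immediate early genes to 11.5, 13.1 and 14.8. G2M genes summed to 12.9, 10.4 and 9.53 per 5000, so they lay in the opposite order. The median depth of these cells also moved, from 46240 to 64632 and 74964 UMIs, and its part was not tested.

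In primary cells the same split (3434, 3780 and 3745 cells) gave 93.7, 103 and 125 CPM for Mdm2 and 2.69, 3.45 and 5.45 for Cdkn2b. Ccng1 stayed at 19.3, 18.1 and 19.3, so unlike Mdm2 it did not move with Cdkn1a. The immediate early genes summed to 92.4, 103 and 118 UMIs per 5000 in these cells, while median depth moved less, from 10040 to 10973 and 10337 UMIs. In single cells the correlation of Cdkn1a with Mdm2 was weak in the cultured library (r = 0.18 over 4543 cells, a description of sparse counts).

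**Figure D5:**
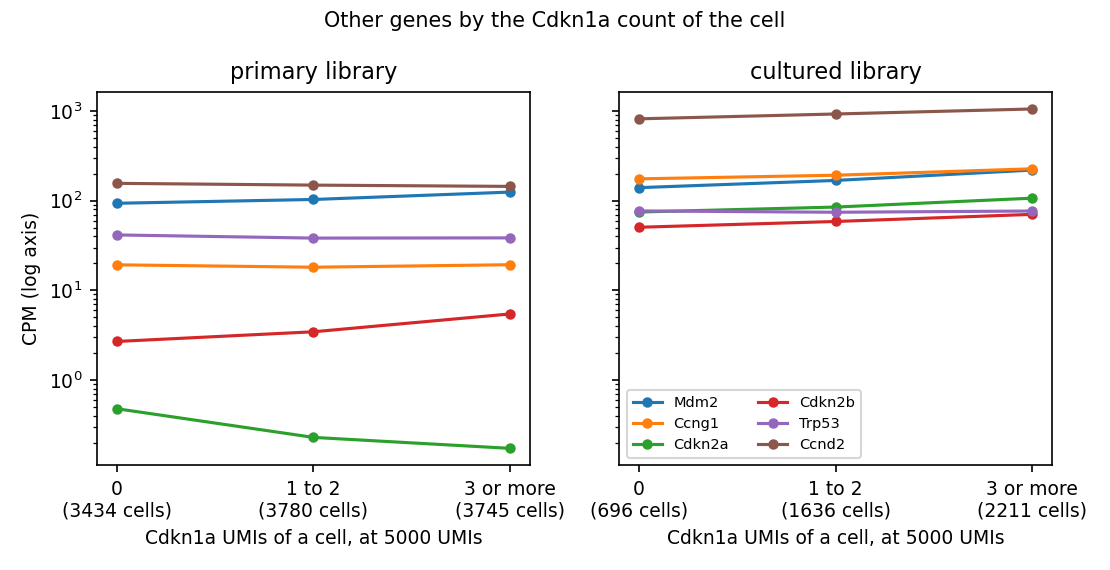
Level of 6 genes, in CPM (log axis), in cells with 0, 1 to 2 or at least 3 Cdkn1a UMIs after thinning to 5000 UMIs, in the primary (left) and cultured (right) library. In cultured cells the Mdm2 line climbs from 139.96 to 219.8 and the Trp53 line stays between 74.4 and 77.0, and in primary cells the Ccng1 line stays between 18.1 and 19.3.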

How the data were processed

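The members and gene lists were chosen with earlier results of these data known. The authors deposited raw UMI counts per gene and barcode for both libraries, made with Cell Ranger 7.0.0 per the processing notes. The methods name mm10, while the notes also list GRCm39, and gene positions here are those of GENCODE on GRCm38. The study prepared 20000 viable cells. Their thresholds for cells are not given in the sources used here.

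Groups were taken from the labels. Counts were summed over kept cells and scaled to 1000000 per library (CPM). Sums have exact Poisson, shares exact binomial (Clopper-Pearson) and ratios exact conditional binomial intervals at 95%, which cover counting error only; a count under 3 was raised to 3 for a ratio. Counts and ratios were tested on simulated data first. With 1 library per group nothing was tested, and "called" means at least 2-fold apart. Clusters came from 2000 variable genes without the 10 genes, 10 components, 20 neighbours and Leiden resolution 0.5 (leidenalg 0.10.2, scanpy 1.11.5, Python 3.11.15). A cluster took a cell type name with at least 3 markers met (at least 50 CPM and 4-fold over the rest of the library), at least 1 of them among its 10 leading genes, or the name chondrocyte where no list met 3 but at least 3 chondrocyte markers reached 1000 CPM. Doublets were kept, and cells with the highest simulated-doublet score (1132 primary and 933 cultured) were left out as an alternative. TMM factors came from edgeR 4.0.16, which was used for scaling only. Other alternatives were stricter cell filters, all barcodes, matched depth, a minimum mitochondrial share, low cycle state, equal cell weights and other thinning depths. Genes named from a list had at least 10 CPM and were among its 6 farthest apart at 2-fold or more, along with every other CDK inhibitor. For likeness over clusters the 3 highest genes with at least 20 CPM were named. Some genes that this rule names are not reported here.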

Additional observations from a re-analysis of the deposited data

Results flagged for a closer look

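The 10 genes were also present in barcodes that had failed the cell filter and entered no comparison. In the 5460 cultured barcodes that failed (median 775 UMIs, 50.6% of all cultured barcodes), they summed to 2467 CPM (15537 UMIs), next to 2758 in the kept cells. Of the single genes, Ccnd2 stood at 1040 in the failed and 989 in the kept barcodes, Mdm2 at 241 and 193, Ccng1 at 229 and 209.6, Cdkn1a at 354 and 638, and Cdkn2a at 53.8 and 95.5. In the 150 primary barcodes that failed they summed to 528 CPM on 111 UMIs, next to 833 in the kept cells. Both sums lay above the level that 3 counts give, 0.476 and 14.3 CPM. No control sample sets a background for them, and whether these barcodes hold cells, fragments or released RNA was not tested.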

How the results depend on the processing

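No paired analysis was possible because each group has 1 library, and for the same reason no replicate could be left out. Under the alternatives the number of the 10 genes at least 2-fold higher stayed at 7, except for 6 in cells of 5000 to 20000 UMIs, with or without those under 1% mitochondrial UMIs, and it was 5 at a 4-fold threshold. None was 2-fold lower in any setting, and all 10 had a higher share of cells with a UMI at each thinning depth and without thinning. The share of all genes detected in more cultured cells was not computed. The log2 ratio of Cdkn1a turned to -0.12 in cells of 5000 to 20000 UMIs and to -0.14 with those under 1% mitochondrial UMIs also left out, and every other gene kept its direction in all 12 alternatives. That of Cdkn2a ranged from 7.91 (low cycle state, where the primary library had 0 UMIs and the value is a bound at 3 counts) to 8.61. The median of the p53 regulators turned to -0.022 in the low cycle state and -0.19 with TMM, and that of the Cdkn2a locus regulators to -0.43 and -0.11. That of S phase genes read -0.22 in the low cycle state. Those cells were picked for few S and G2M UMIs, so no conclusion is drawn from that value. With a threshold of 10 UMIs for G2M-rich cells the log2 ratio over low cells turned to -0.30 (Cdkn1a), -0.052 (Trp53) and -0.22 (Mdm2) in primary and to -0.11 (Cdkn1a) in cultured CDSCs. The cause was not tested. With TMM 2023 genes were 2-fold higher and 1385 lower in place of 2482 and 1143, so the share of higher among these was 59.4% in place of 68.5%. At resolution 1 the highest over the lowest cultured cluster was 4.62 (Cdkn1a), 5.84 (Cdkn1b), 4.98 (Cdkn2a), 4.42 (Mdm2), 3.59 (Ccng1) and 5.94 (Ccnd1), in place of 1.40, 1.88, 2.91, 1.44, 2.01 and 2.25. The alternatives without shared barcodes, with at least 5000 UMIs and with at least 1% mitochondrial UMIs were chosen after seeing the data. Depth limits the primary Cdkn2a values most, since they rest on 38 UMIs.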

Other observations

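A small set of cultured barcodes carried far more Ccnd2 than the rest. In 12 kept barcodes over 1% of all UMIs came from Ccnd2 (at least 10 UMIs each, 1.06% to 7.94%), and in no primary cell was this so. They were shallow, with a median of 4764 UMIs (1621 to 17139), and held 0.549% of the cultured Ccnd2 UMIs. Summed, they gave 26787 CPM of Ccnd2 against 984 in the other cultured cells, and 6066 of Ccnd1 against 367, whereas Cdkn1a stood at 74.7. Apart from Ccnd2, the genes with at least 1000 CPM that were farthest above the other cells were Rab13 (44.9-fold), Cenpb (30.5-fold), Dync1li2 (28.2-fold), Cyb5r3 (27.8-fold), Kif1c (27.0-fold), Grem1 (24.1-fold) and Sh3pxd2a (16.8-fold). As background, the mRNAs of Rab13 and Kif1c are known to gather in the protrusions of fibroblasts. The barcodes were picked for their Ccnd2 after the values were seen, so these are values with no test. Without them the Ccnd2 log2 ratio of cultured over primary was 2.71, against 2.72 with them.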
